A study of Mus musculus with 6 samples.

Results

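RAB GTPases, SNAREs and synaptotagmins form the core of the machinery that moves and fuses membrane vesicles. They were taken here by gene name from the table of counts: protein-coding genes whose symbols begin with Rab, Syt, Stx, Vamp or Snap followed by a digit, or with Sytl or Stxbp. The rule gave 126 of 55487 genes. They comprise 59 RAB GTPases, 10 proteins named for binding or acting on a RAB, 17 synaptotagmins, 5 synaptotagmin-like proteins, 15 syntaxins, 7 syntaxin-binding proteins, 8 VAMPs and 5 SNAPs. The names also brought in proteins of other kinds, such as Snap91, a clathrin adaptor of synaptic vesicles.

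The libraries are bulk RNA sequencing of GFP-positive, CD45-negative cells sorted from digested mouse lungs carrying KP tumours, a mouse model of lung adenocarcinoma, 11 weeks after the tumours were initiated. The control group, sgNeo, is labelled Lkb1 wild type, and the other, sgLkb1, is labelled Lkb1 mutant; both carry the KP tumour genotype and each has 3 libraries. Lkb1 (gene symbol Stk11) is a kinase upstream of AMPK and of the SIK kinases. The labels do not say that the replicates came from separate animals, so p-values measure the spread between these libraries, which may be technical, and they give no age, strain or clone of the tumours.

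Each RAB GTPase switches between a GDP form held in the cytosol and a GTP form on a particular membrane, where it recruits tethers and motors. SNAREs on a vesicle (mainly VAMPs) and on its target (syntaxins and SNAPs) then zip together to fuse the membranes, aided by the syntaxin-binding Munc18 proteins, and synaptotagmins make fusion respond to calcium. In the lung these proteins serve, among other things, the release of surfactant from lamellar bodies, the lysosome-related organelles of alveolar type 2 cells.

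Total counts were 26007503 to 28986526 in sgNeo and 29613678 to 41729299 in sgLkb1 libraries, so that 3 counts stood for 0.12 CPM (counts relative to TMM-scaled library size) in sgNeo and for 0.073 to 0.086 CPM in sgLkb1. Stk11 was at 68.3, 33.4 and 82.7 CPM in the 3 sgNeo libraries and at 23.5, 25.6 and 25.3 CPM in the 3 of sgLkb1 (a log2 difference of -1.31, edgeR adjusted p = 0.023), a call lost when any library but sgNeo replicate 2 was left out (adjusted p up to 0.076). Among cell type markers, 12 of 12 alveolar type 2 markers fell, from a summed 154521 to 190082 CPM in sgNeo to 14867 to 23938 CPM in sgLkb1. The epithelial markers Epcam and Krt19 rose (2 of 7 tested), as did 3 of 10 endothelial, 4 of 10 fibroblast and smooth muscle, 1 of 5 mesothelial and 2 of 5 neuroendocrine or neuronal markers. Among leukocyte markers 1 of 15 rose and 1 fell, among platelet and erythroid markers 1 of 5 rose and 1 fell, and 1 of 7 ciliated and club cell markers fell. Of 9 immediate-early and heat shock genes, such as Fos, Jun and Dnajb1, taken as a check on dissociation, 0 passed by edgeR (2 at an unadjusted p under 0.05, 1 by DESeq2). RNA quality itself was not measured here. The part of the marker changes in the results below was not tested. Fewer cells of a type and less RNA per cell cannot be told apart in such bulk samples.

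Of the 126 genes, 111 passed the filter on low counts and were tested, and 15 did not, among them Rab9b, Rab33a, Rab37, Rab39, Rab39b, Rab42, Stxbp5l, Syt6, Syt9, Syt10, Syt14, Sytl3, Snap91 and Vamp9. The highest level of any of these in any library was 0.836 CPM, and Rab9b had no counts in all 6. In sgLkb1 tumours 7 of the 111 rose and 13 fell at an edgeR adjusted p under 0.05, and 91 did not pass. The share called was 18.0%, beside 15.7% of all 15978 genes tested; in single directions the background was 7.05% higher and 8.6% lower. DESeq2 called 30, among them all of these 20, beside 22.3% of all genes (11.4% higher and 10.9% lower). The median log2 fold change, sgLkb1 minus sgNeo, was -0.10 over the 111 and 0.02 over all genes, the median size of the change was 0.42 in both, and 62 of the 111 (55.9%) differed by less than 0.5 on the log2 scale, beside 56.5% of all genes. As a set, these genes changed about as often and about as much as the rest of the transcriptome, and the results below concern individual members.

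The genes that rose were Syt13, Snap25, Syt16, Rab8b, Rab11fip5, Rab32 and Rab6a. Those that fell were Rab3c, Rab15, Rab6b, Sytl1, Syt7, Rab11fip3, Stx17, Rab19, Rab9, Rab3a, Rab1b, Rab33b and Vamp2. In none of these 20 did the libraries of one genotype overlap those of the other. Over all 111 the groups did not overlap for 15 genes that were higher and 29 that were lower, beside 16.3% and 20.3% of all genes (36.5% in either direction). Calls of 9 genes stood under every alternative setting, leave-one-out fits included: Rab3c, Rab6b, Rab8b, Rab9, Rab11fip3, Rab15, Stx17, Syt13 and Sytl1. In GRCm38 coordinates of the GENCODE M21 gene models, 5 members with large changes lie on chromosome 2 from 92915098 to 92956058, plus strand (Syt13), chromosome 2 from 136713453 to 136782428, plus strand (Snap25), chromosome 9 from 66843664 to 66919687, minus strand (Rab8b), chromosome 13 from 110054187 to 110280996, minus strand (Rab3c), and chromosome 12 from 76797960 to 76822908, minus strand (Rab15). None of these 5 has exons that overlap another gene. Syt16, which is not among them though it changed more than Rab8b, overlaps Gm29587 on the other strand. Other called genes with overlaps on the other strand include Syt7 (Gm26859), Rab11fip3 (1700022N22Rik) and Rab33b (Gm38160). Rab11fip5 overlaps Mir705 on the same strand. In the plot of changes by role, 5 of 13 groups hold both a rise and a fall, 5 hold calls in one direction and 3 hold no call.

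**Figure D1:**
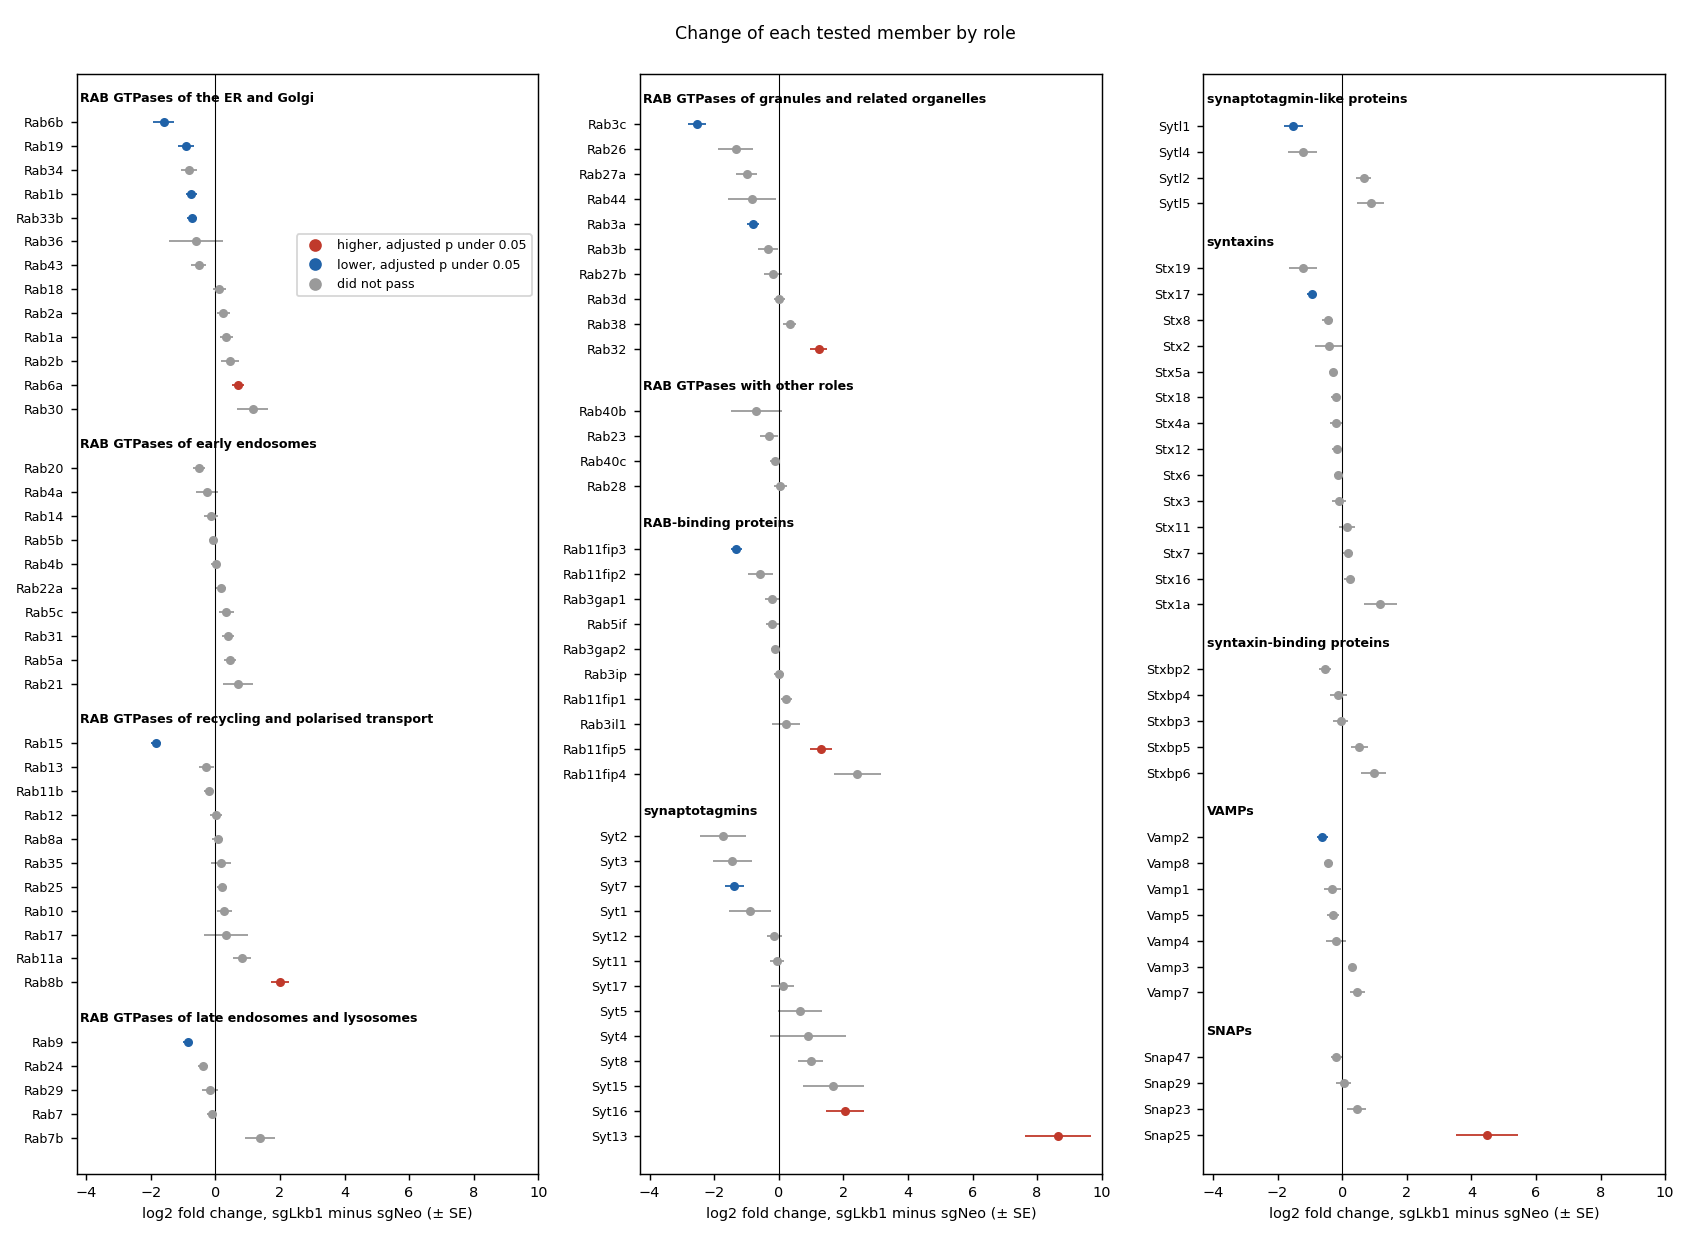
Log2 fold change (sgLkb1 minus sgNeo, x axis, with SE) of the tested genes (all but 1 of the 111), grouped by role; red, higher and blue, lower at an edgeR adjusted p under 0.05; grey, did not pass. Most points lie near 0, and Syt13 (8.65) and Snap25 (4.48) lie farthest to the right, while Rab3c (-2.53) lies farthest to the left.

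RAB GTPases of the ER and Golgi held the highest number of calls of any group: of 13 tested, 1 rose and 4 fell (38.5%, beside 15.7% of all genes). This group carries secretory cargo from the ER through the Golgi stack. Of its calls, only that of Rab6b stood under every alternative setting. All the groups are small, and their counts here and below are to be read beside that share of 15.7%. In the lists of values below, 3 values are those of replicates 1, 2 and 3 in that order, and means are given ± SD with n = 3. Rab1b, which drives transport from the ER to the Golgi, was at 233, 229 and 254 CPM in sgNeo and at 118, 148 and 163 CPM in sgLkb1. The sgLkb1 libraries all lay below the sgNeo libraries, and the fall was 0.74 on the log2 scale (SE 0.17, edgeR adjusted p = 0.022). Its partner Rab1a, with the same role, was at 387 ± 59.5 and 490.0 ± 106 CPM, which did not pass (adjusted p = 0.31).

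Rab6a, which serves traffic from and back to the Golgi, went up while its near relative Rab6b, a form best known from neurons, went down. Rab6a was at 159, 159.9 and 149 CPM in sgNeo and at 318, 219.5 and 219 CPM in sgLkb1, with replicate 1 of sgLkb1 the highest (log2 fold change 0.69, SE 0.19, edgeR adjusted p = 0.040). Rab6b was at 11.3, 10.0 and 11.8 CPM in sgNeo and at 2.28, 4.46 and 4.13 CPM in sgLkb1, where replicate 1 was the lowest (-1.60, SE 0.32, edgeR adjusted p = 0.013). Of reads per kilobase of exon that fell on either of the pair, Rab6b made up 4.99% ± 0.54 in sgNeo and 1.13% ± 0.52 in sgLkb1. Among 19 pairs of relatives compared this way, this was the only one in which both members passed in opposite directions. The call for Rab6a was lost without any 1 of the sgNeo libraries (adjusted p up to 0.14), and its exons overlap those of Mrpl48 on the other strand, whose reads cannot be told apart here since the strand setting is not given in the sources used.

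Rab33b and Rab19 also fell, both of which are Golgi RABs. Rab33b, which also binds the autophagy protein Atg16l1, was at 42.0, 43.4 and 38.8 CPM in sgNeo and at 28.6, 23.5 and 23.2 CPM in sgLkb1 (-0.72, SE 0.16, edgeR adjusted p = 0.018). Rab19 was at 15.0, 12.8 and 16.5 CPM in sgNeo and at 9.35, 6.27 and 7.89 CPM in sgLkb1 (-0.91, SE 0.24, edgeR adjusted p = 0.035). Neither gene's groups overlapped, but with 1 library left out at a time the Rab33b call did not hold in 4 of 6 fits and the Rab19 call in 5 of 6, with adjusted p up to 0.088 and 0.12. Rab1b was lost in 4 of 6 as well (up to 0.078); the fits that kept it left out sgLkb1 replicate 1 or 3. Of the 8 others in the group that were tested, Rab34 had a mean of 46.8 ± 7.81 and 26.6 ± 7.74 CPM without overlap and an adjusted p of 0.061, and Rab2a, a RAB of the Golgi and the compartment before it, was at 466 ± 65.4 and 555 ± 95.8 CPM (adjusted p = 0.43).

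RAB GTPases of early endosomes, which sort cargo just taken up, gave 0 calls among 10 tested by edgeR and by DESeq2, and 2 had an unadjusted p under 0.05. Rab20, a RAB of endosomes and phagosomes, was at 46.3 ± 2.82 and 32.6 ± 5.72 CPM in sgNeo and sgLkb1 (edgeR adjusted p = 0.087, no overlap). Rab5a, Rab5b and Rab5c, which control fusion of early endosomes, were at 162 ± 6.91, 99.7 ± 2.67 and 12.7 ± 3.15 CPM in sgNeo and at 222 ± 49.1, 95.0 ± 9.04 and 16.0 ± 1.66 CPM in sgLkb1. Only the Rab5a libraries did not overlap between genotypes, and its adjusted p was 0.14. Rab31, a RAB of the Golgi and endosomes, was at 39.5 ± 8.12 and 51.6 ± 7.55 CPM (adjusted p = 0.22).

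RAB GTPases of recycling and polarised transport held both a strong rise and a strong fall. Of 11 tested, Rab8b rose, Rab15 fell and 9 did not pass. Rab8a and Rab8b both carry cargo from the Golgi to the plasma membrane and the cilium. Rab8b was at 9.23, 11.5 and 8.09 CPM in sgNeo and at 54.0, 30.8 and 31.2 CPM in sgLkb1, or 2.01 higher on the log2 scale (SE 0.27, edgeR adjusted p = 0.0028). Every sgLkb1 library was well above every sgNeo library, with sgLkb1 replicate 1 the highest. Rab8a was at 104 ± 14.5 CPM and 109.9 ± 15.9 CPM (0.08, adjusted p = 0.80), and the sign of that small difference changed in 2 leave-one-out fits. Rab8b made up 8.49% ± 2.08 of the pair's reads per kilobase in sgNeo and 25.9% ± 9.20 in sgLkb1, and Rab8a stayed the larger of the 2 in every library.

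The 120 bases before the start site of each of these genes are shown because only 1 of the near relatives rose. Both are from RefSeq (GRCm38.p6), written 5′ to 3′ along the gene, at chr8:72161080-72161199 on the plus strand for Rab8a and at chr9:66919706-66919825 on the minus strand for Rab8b; the capitals mark TGACG, the core letters that CREB proteins bind, or its reverse complement CGTCA.
Rab8a: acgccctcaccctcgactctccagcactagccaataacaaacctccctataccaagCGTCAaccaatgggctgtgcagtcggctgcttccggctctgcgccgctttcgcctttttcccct
Rab8b: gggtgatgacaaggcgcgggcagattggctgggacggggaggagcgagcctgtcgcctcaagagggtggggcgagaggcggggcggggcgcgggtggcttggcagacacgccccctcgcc
The Rab8a stretch is 58.3% G or C with 8 CG pairs and holds 1 such site. Another TGACG of Rab8a has its first base at -122 from the start site and is cut by the edge of the stretch. The Rab8b stretch is 74.2% G or C with 12 CG pairs and holds none, nor do the 300 bases around its start.

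Rab15, a RAB of early and recycling endosomes, was among the members that changed most firmly. It was at 139.6, 114 and 106 CPM in sgNeo and at 34.8, 31.3 and 34.6 CPM in sgLkb1, so that every control library held at least 3 times the level of any mutant library. The fall was 1.84 on the log2 scale (SE 0.16, edgeR adjusted p = 0.00067). Rab11a, the RAB that defines recycling endosomes, was at 381 ± 74.1 CPM and 675 ± 262 CPM, with overlap and an adjusted p of 0.096. Rab11b was at 220.5 ± 23.9 and 193 ± 10.8 CPM (adjusted p = 0.44), and Rab25, the epithelial member of the same branch, at 102 ± 15.2 and 119 ± 1.87 CPM (adjusted p = 0.39). Rab10, which carries cargo to the basolateral membrane, was at 227 ± 46.4 and 277 ± 63.4 CPM, and Rab17, another epithelial RAB, was near 1 CPM in both genotypes; neither passed.

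Among RAB GTPases of late endosomes and lysosomes, 1 of 5 tested fell. Rab9, which returns mannose 6-phosphate receptors from late endosomes to the Golgi, was at 61.4, 60.4 and 61.0 CPM in sgNeo and at 35.3, 31.4 and 34.3 CPM in sgLkb1. Libraries of one genotype lay close together and far from the other's, and the fall was 0.86 on the log2 scale (SE 0.13, edgeR adjusted p = 0.0052). Rab7, the main RAB of late endosomes and one of the most abundant of all, was at 326 ± 23.5 and 305 ± 19.5 CPM (adjusted p = 0.70). Rab7b was at 0.923 ± 0.099 and 2.42 ± 1.05 CPM without overlap and did not pass (adjusted p = 0.090).

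Of 10 tested RAB GTPases of secretory granules and lysosome-related organelles, 2 fell and 1 rose. Rab3a and Rab3c, which dock regulated secretory vesicles, were the 2 that fell. Rab3c was at 11.9, 14.7 and 10.2 CPM in sgNeo and at 2.06, 2.34 and 1.98 CPM in sgLkb1 (-2.53, SE 0.28, edgeR adjusted p = 0.0012). Rab3a was at 36.7, 32.5 and 41.0 CPM in sgNeo and at 17.1, 20.8 and 25.6 CPM in sgLkb1 (-0.79, SE 0.20, edgeR adjusted p = 0.029). The sgLkb1 libraries were lower in both, but the Rab3a call was lost in 5 of 6 leave-one-out fits (up to 0.11), and its exons overlap those of Mpv17l2 on the other strand. Rab3b was at 10.0 ± 3.33 and 7.95 ± 1.78 CPM (adjusted p = 0.52). Rab3d, found on lamellar bodies and other exocrine granules, was at 79.1 ± 7.68 and 80.0 ± 12.9 CPM (adjusted p = 0.96), with a sign that changed in 4 leave-one-out fits.

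Rab32, which with Rab38 serves the making of melanosomes and related organelles, was the one that rose. Its values were 15.9, 14.1 and 13.9 CPM in sgNeo and 29.7, 49.0 and 24.5 CPM in sgLkb1 (1.23, SE 0.26, edgeR adjusted p = 0.018), with sgLkb1 replicate 2 highest; the call was lost without any 1 of the sgNeo libraries (up to 0.080). Rab38 was at 31.1 ± 4.57 and 39.5 ± 8.58 CPM (adjusted p = 0.29). Leukocyte markers summed to 76.9 to 136 CPM in sgNeo and to 244 to 466 CPM in sgLkb1, the sum being led by Cd53. Singly they went both ways: of 15 tested, 1 rose and 1 fell by edgeR, and 5 were higher and 4 lower at an unadjusted p under 0.05. Ptprc, the gene of the CD45 used in the sort, lay at 4.9 to 8.9 CPM in sgNeo and 4.4 to 10.4 CPM in sgLkb1. The part of leukocytes in the Rab32 values was not tested. Rab27a, which docks secretory lysosomes and exosome-bearing bodies, was at 122 ± 16.4 and 60.9 ± 31.8 CPM without overlap, an adjusted p of 0.078. Rab27b was at 118 ± 11.6 and 105 ± 46.6 CPM (adjusted p = 0.73), and made up 26.2% ± 2.38 of the pair per kilobase in sgNeo and 39.0% ± 2.79 in sgLkb1. Rab26 was at 2.14 ± 1.12 and 0.841 ± 0.264 CPM and Rab44 was under 1 CPM on average in both; neither passed.

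**Figure D2:**
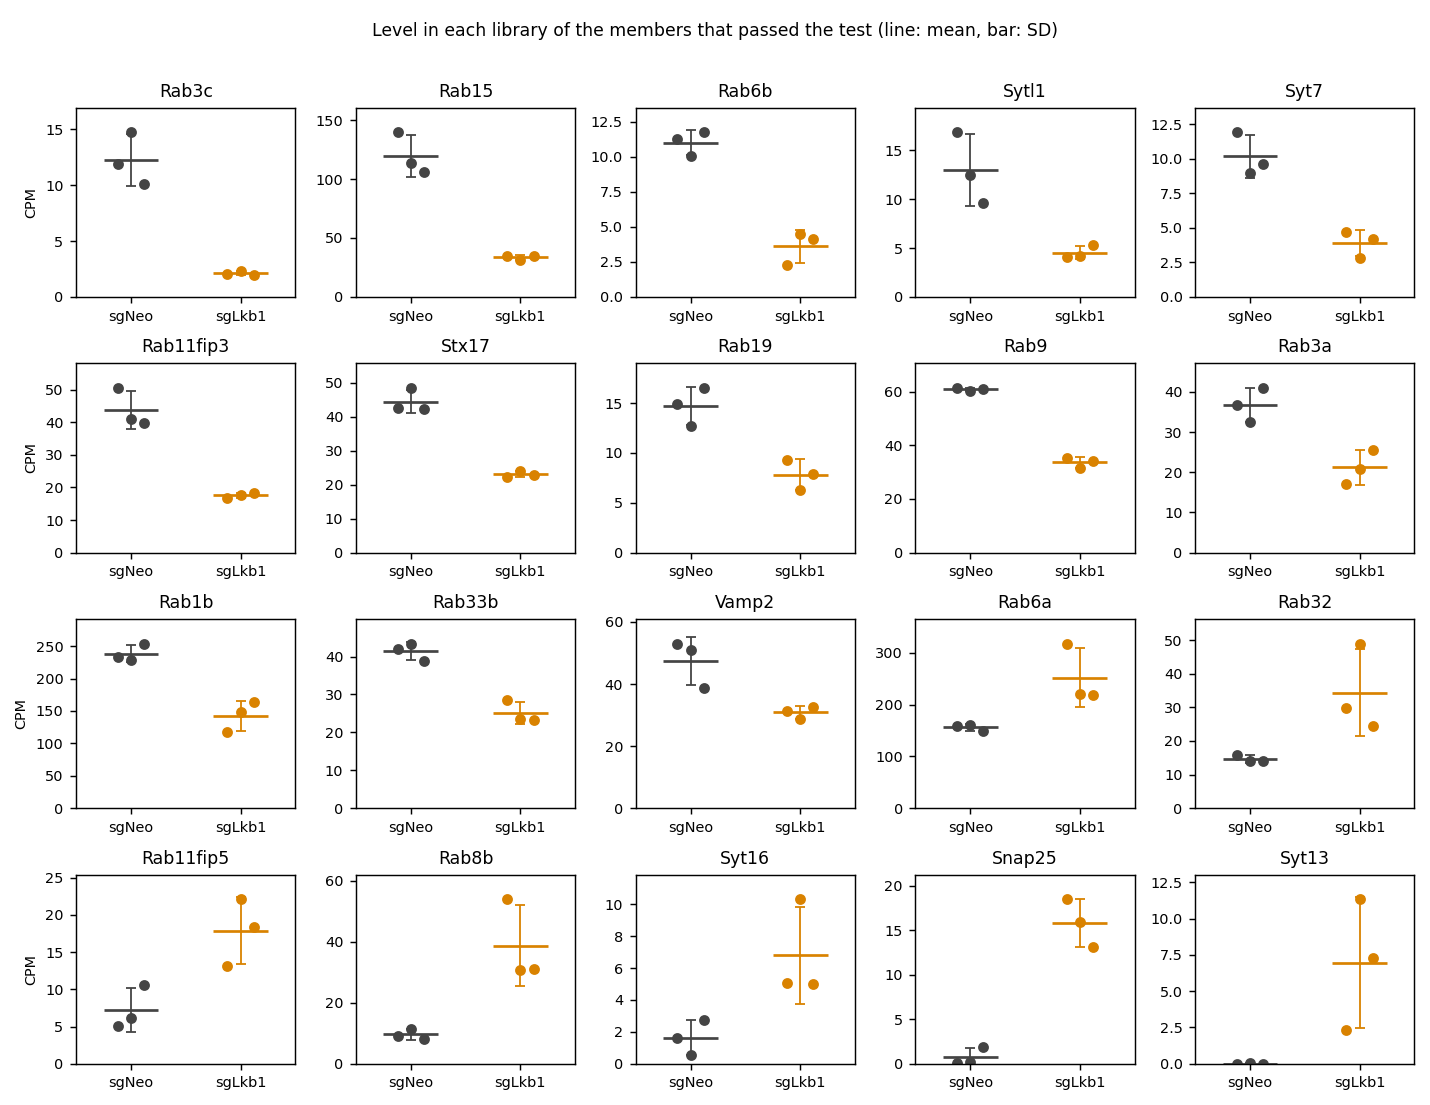
CPM in each library (points) of the 20 genes that passed the test, in order of log2 fold change, with sgNeo in grey and sgLkb1 in orange; lines are means and bars SD, n = 3. No panel has overlapping groups, and the sgNeo points of Syt13 lie at or near 0.

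Among the proteins named for binding a RAB, 1 of 10 rose and 1 fell, and both were Rab11 family interacting proteins, which link Rab11 to motors and to its membranes. Rab11fip3, which also binds Arf6 and acts in cell division, was at 50.6, 41.0 and 39.9 CPM in sgNeo and at 16.8, 17.7 and 18.4 CPM in sgLkb1 (-1.31, SE 0.16, edgeR adjusted p = 0.0020). Rab11fip5 was at 5.05, 6.11 and 10.5 CPM in sgNeo and at 13.1, 22.1 and 18.4 CPM in sgLkb1 (1.30, SE 0.33, edgeR adjusted p = 0.033). In both the genotypes were apart, Rab11fip5 by the narrower gap, and its call was lost in 4 of 6 leave-one-out fits (up to 0.13). Rab11fip4 was under 1 CPM in sgNeo, at 0.309 ± 0.200, and at 1.68 ± 0.711 CPM in sgLkb1 (adjusted p = 0.059). Rab11fip1 was at 111 ± 13.8 and 131 ± 15.4 CPM and Rab3gap1, a part of the complex that inactivates Rab3, at 50.3 ± 2.58 and 43.3 ± 12.9 CPM; neither passed.

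Synaptotagmins gave the largest rise of any member. Of 13 tested, Syt13 and Syt16 rose, Syt7 fell and 10 did not pass. Syt13, a synaptotagmin whose C2 domains do not bind calcium, had 0, 1 and 0 counts in sgNeo and 95, 432 and 253 counts in sgLkb1, or 0, 0.041 and 0 CPM against 2.32, 11.3 and 7.26 CPM. All sgLkb1 libraries had reads and sgNeo libraries had 1 read in all, a fitted log2 difference of 8.65 (SE 1.02, edgeR adjusted p = 0.0016) whose size rests on that 1 read. The ratio of pooled reads per scaled library was 512, with a 95% exact interval of 91.6 to 20252 that covers counting error only. Without sgNeo replicate 2, which holds the read, the fitted value was 10.83.

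Neuroendocrine and neuronal markers summed to 2.97 to 8.95 CPM in sgNeo and to 9.64 to 48.7 CPM in sgLkb1, where Ncam1 and Calca rose. Defining factors of neuroendocrine cells were at or near 0: Neurod1 had no counts in all 6 libraries and Insm1 was at 0.027 ± 0.046 and 0.140 ± 0.198 CPM. Syt13 in sgLkb1 was lowest in replicate 1 and highest in replicate 2, where this marker sum was also lowest and highest (9.64 and 48.7 CPM). That order is not particular to these markers. In sgLkb1 replicates 1 and 2 the epithelial sum was also lowest and highest (8424 and 10583 CPM). The same held for the mesothelial sum (818 and 1285 CPM) and the platelet and erythroid sum (30.1 and 138 CPM). Snap25 did not follow that order, at 18.5, 16.0 and 13.1 CPM in sgLkb1 replicates 1, 2 and 3. Whether neuroendocrine or neuronal cells contribute was not tested.

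Syt16, which also lacks calcium-binding residues, was at 1.60, 0.567 and 2.75 CPM in sgNeo and at 5.06, 10.3 and 5.02 CPM in sgLkb1 (2.05, SE 0.59, edgeR adjusted p = 0.0497). The sgLkb1 values were the higher ones, but the call lay at the threshold and was lost in 5 of 6 leave-one-out fits (up to 0.15). The exception was the fit without sgNeo replicate 3, where the log2 fold change was 2.64. With the replicate number as a block its adjusted p was 0.071. Syt7, a calcium sensor for exocytosis of lysosomes and granules, was at 11.9, 8.99 and 9.64 CPM in sgNeo and at 4.70, 2.83 and 4.19 CPM in sgLkb1. It fell by 1.38 on the log2 scale (SE 0.29, edgeR adjusted p = 0.017), a call lost in 3 leave-one-out fits (without sgNeo replicate 1 or 2 or sgLkb1 replicate 2, up to 0.073).

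The synaptotagmin with most reads per kilobase was Syt8, at 24.0 ± 12.9 and 47.5 ± 14.0 CPM with overlap (edgeR adjusted p = 0.12); it made up 55.6% of the family per kilobase in sgNeo and 70.1% in sgLkb1. Syt1 and Syt2, the fast calcium sensors of synapses, were at 0.694 ± 0.384 and 1.02 ± 0.110 CPM in sgNeo and at 0.374 ± 0.108 and 0.304 ± 0.266 CPM in sgLkb1, and neither passed. Syt11 was at 11.9 ± 0.56 and 11.4 ± 1.48 CPM (adjusted p = 0.88). Syt1 and Syt2 were thus low in both genotypes.

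Synaptotagmin-like proteins tether Rab27 vesicles to the plasma membrane, and 1 of 4 tested fell. Sytl1 was at 16.8, 12.5 and 9.60 CPM in sgNeo and at 4.11, 4.22 and 5.31 CPM in sgLkb1 (-1.51, SE 0.29, edgeR adjusted p = 0.011), each mutant library lying below each control. Sytl2 was at 33.0 ± 4.88 and 52.4 ± 15.1 CPM (0.67, adjusted p = 0.096) and Sytl5 at 3.63 ± 1.24 and 6.65 ± 2.99 CPM (adjusted p = 0.21), both higher without overlap and not past the test. Sytl4 was at 2.31 ± 0.520 and 0.994 ± 0.271 CPM (adjusted p = 0.11). Per kilobase of exon, Sytl1 held 53.4% ± 12.5 of the family's reads in sgNeo and 21.8% ± 6.03 in sgLkb1, while Sytl2 held 24.8% and 43.2% and Sytl5 16.6% and 32.6%. The order of the family by level was thus Sytl1, Sytl2, Sytl5 in sgNeo, and Sytl2 was first in sgLkb1, with the sum of the family overlapping between genotypes at 9.59 ± 0.59 and 8.66 ± 2.23 CPM per kilobase.

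Syntaxins, the SNAREs of target membranes, gave 1 fall among 14 tested, with 13 that did not pass. Stx17, which fuses autophagosomes with lysosomes, was at 42.7, 48.5 and 42.3 CPM in sgNeo and at 22.2, 24.1 and 23.0 CPM in sgLkb1. Each sgLkb1 library was below each control, and the fall was 0.95 on the log2 scale (SE 0.15, edgeR adjusted p = 0.0048). Stx19, an unusual syntaxin without a transmembrane segment, was at 31.4 ± 4.20 and 13.5 ± 9.49 CPM without overlap, which did not pass (adjusted p = 0.095). Stx12 and Stx7, syntaxins of endosomes, had the most reads per kilobase in the family, at 47.1 ± 5.57 and 39.2 ± 5.06 CPM per kilobase in sgNeo and at 41.7 ± 2.58 and 44.0 ± 4.43 CPM per kilobase in sgLkb1; neither passed.

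Syntaxins of the plasma membrane did not pass either. Stx3, of the apical surface, was at 80.2 ± 0.39 and 74.9 ± 21.7 CPM (edgeR adjusted p = 0.79), Stx4a at 33.8 ± 4.42 and 29.7 ± 4.89 CPM (0.53) and Stx2 at 12.3 ± 5.13 and 9.22 ± 3.78 CPM (0.55). Stx1a, the syntaxin of neurons and endocrine cells, was at 1.94 ± 0.453 and 4.40 ± 2.78 CPM with overlap (adjusted p = 0.16), and Stx11, which acts in lymphocyte granules, at 26.3 ± 5.25 and 29.3 ± 8.60 CPM (0.71). The neuronal syntaxin was thus a minor one in both genotypes.

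Syntaxin-binding proteins gave 0 calls among 6 tested by edgeR, with 2 at an unadjusted p under 0.05 and 1 called by DESeq2 (Stxbp6). Stxbp2, the Munc18 protein of epithelial and blood cell granules and the leading member per kilobase, was at 253 ± 7.54 and 175 ± 36.1 CPM without overlap (edgeR adjusted p = 0.090). Stxbp5 (tomosyn) was at 9.08 ± 1.93 and 13.1 ± 2.85 CPM (0.21) and Stxbp6 (amisyn) at 9.03 ± 3.70 and 17.7 ± 7.33 CPM (0.12). Summed per kilobase, the family was at 91.7 ± 2.32 and 73.3 ± 0.95 CPM per kilobase, and the genotypes did not overlap; no test was made on this sum, most of which is Stxbp2 (66.5% in sgNeo and 57.4% in sgLkb1).

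VAMPs, the SNAREs of vesicles, gave 1 fall among 7 tested. Vamp2 (synaptobrevin 2), which serves regulated exocytosis, was at 53.0, 50.9 and 38.7 CPM in sgNeo and at 31.4, 28.7 and 32.7 CPM in sgLkb1 (-0.62, SE 0.17, edgeR adjusted p = 0.042). The mutant libraries were all below the lowest control, replicate 3 of sgNeo, which stood nearer to them than to the other controls. The call was the least firm of the falls: it was lost in 5 of 6 leave-one-out fits, all but the one without sgNeo replicate 3 (up to 0.16), and with RLE scaling (0.055), with no filter on low counts and with the replicate block (0.051). Vamp8 (endobrevin), the SNARE of late endosomes and of exocrine granules, was by far the leading VAMP per kilobase, with 75.1% of the family in sgNeo and 69.6% in sgLkb1. Its level was 401 ± 37.8 and 299 ± 5.17 CPM without overlap (adjusted p = 0.096).

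Vamp3 (cellubrevin), of recycling endosomes, was at 80.7 ± 1.10 and 99.1 ± 6.40 CPM, higher in all 3 sgLkb1 libraries with an edgeR adjusted p of 0.17. Vamp7, of secretory lysosomes, was at 49.6 ± 9.58 and 68.5 ± 17.6 CPM (0.22), and Vamp1 at 6.50 ± 0.828 and 5.27 ± 0.594 CPM (0.49). The sum of the 7 VAMPs with a known exon length was 231 ± 15.4 and 186 ± 7.43 CPM per kilobase without overlap, and Vamp8 carried most of that gap. Alveolar type 2 markers fell in the same libraries, as given above. Vamp8, Rab27a, Rab3d and Rab38 are known from the granules of secretory epithelia, and of these 4 none passed the edgeR test. Vamp8 and Rab27a were lower, had an unadjusted p under 0.05 and passed by DESeq2, which called 22.3% of all genes. Rab3d and Rab38 were not lower (log2 fold changes of 0.016 and 0.34). Among other members of granules and related organelles, Rab32 rose.

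SNAPs gave 1 rise among 4 tested, and it was the second largest of all members. Snap25, the SNAP of neurons and endocrine cells, had 1, 4 and 48 counts in sgNeo and 755, 608 and 456 counts in sgLkb1. In CPM these are 0.040, 0.162 and 1.91 against 18.5, 16.0 and 13.1, so that sgNeo replicate 3 held nearly all control reads and still lay far below any sgLkb1 library. The log2 fold change was 4.48 (SE 0.97, edgeR adjusted p = 0.018), and the ratio of pooled reads per scaled library was 22.5, with a 95% exact interval of 17.1 to 30.2 for counting error alone. The call was lost without sgNeo replicate 2 (adjusted p = 0.068), and without sgNeo replicate 3 the log2 fold change was 7.24. Syt13, by contrast, kept its call in all 6 leave-one-out fits.

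Snap23, the SNAP found in most cells, remained the main one at 109 ± 12.2 and 148 ± 71.0 CPM with overlap (edgeR adjusted p = 0.37), and sgLkb1 replicate 1 set much of its mean: the sign changed without it. Of the reads per kilobase on Snap23 and Snap25 together, Snap25 made up 0.02%, 0.10% and 1.18% in sgNeo and 4.86%, 7.64% and 8.09% in sgLkb1. Snap29, which pairs with Stx17 on autophagosomes, was at 17.3 ± 2.60 and 17.8 ± 3.98 CPM (0.92), and Snap47 at 36.4 ± 1.27 and 32.2 ± 5.51 CPM (0.53). Stx17 thus fell, while no difference was detectable in its partner Snap29.

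**Figure D3:**
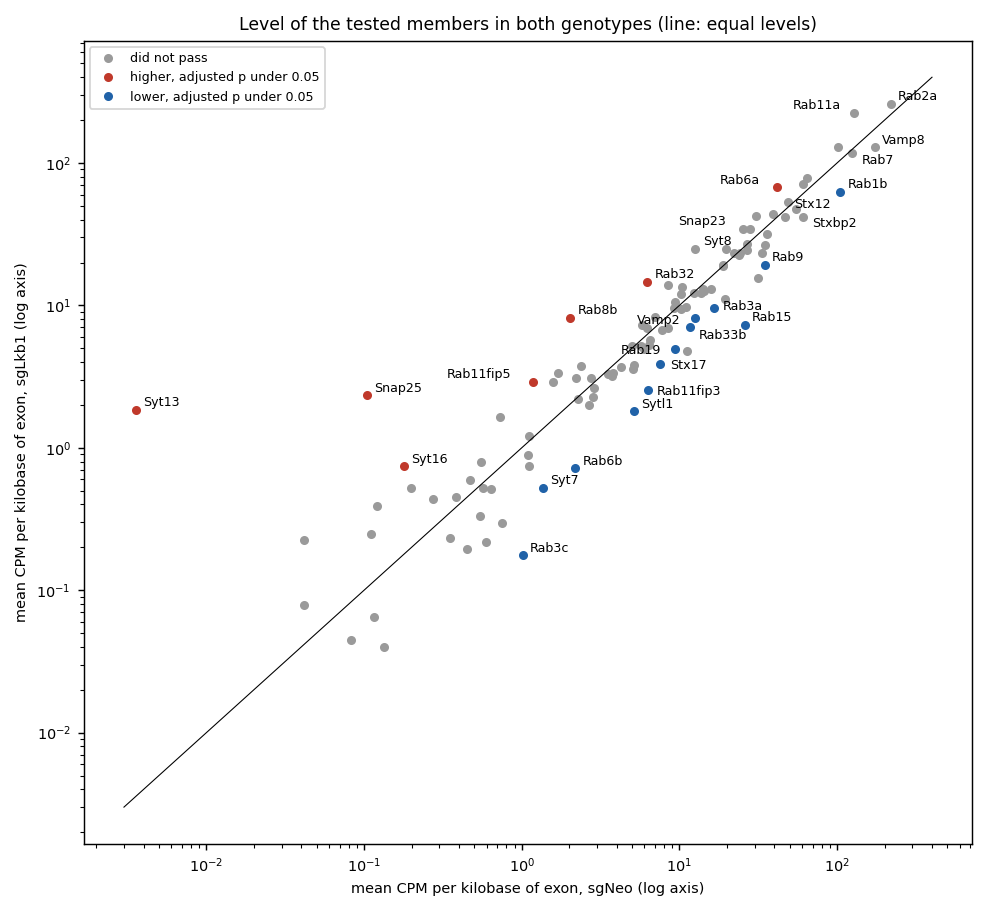
Mean CPM per kilobase of exon in sgNeo (x axis) and sgLkb1 (y axis), both on log axes, of the tested genes with a known exon length; red, higher, blue, lower and grey, did not pass; the line marks equal levels. The genes at the top right, led by Rab2a (219 and 260.1 CPM per kilobase), lie near the line, and Syt13 and Snap25 lie far above it at low levels.

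Levels per kilobase put these changes in proportion. The leading members of each family in sgNeo were Rab2a at 219 ± 30.7, Vamp8 at 174 ± 16.4, Stxbp2 at 60.9 ± 1.81, Rab5if at 54.6 ± 2.52, Stx12 at 47.1 ± 5.57, Snap23 at 25.4 ± 2.85, Syt8 at 12.6 ± 6.82 and Sytl1 at 5.16 ± 1.45 CPM per kilobase, and of these Sytl1 alone passed the test. In sgLkb1 Snap25 reached 2.33 ± 0.40, Syt13 1.85 ± 1.20 and Rab8b 8.17 ± 2.80 CPM per kilobase, well below Snap23, Syt8 and Rab8a at 34.5 ± 16.5, 25.1 ± 7.39 and 23.5 ± 3.40. The sum over all RAB GTPases was 1448 ± 86.3 and 1554 ± 229 CPM per kilobase, and the genotypes overlapped. RABs of late endosomes and lysosomes were the only RAB group whose sums did not overlap, at 202 ± 8.23 and 169 ± 5.80 CPM per kilobase.

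No share within a pair of close relatives passed a test of its difference. Of 19 pairs compared, the shares did not overlap between genotypes in 12; the exact permutation test (two-sided, 3 against 3) gave p = 0.10 for each of these, which is the smallest it can give, and 0.158 after Benjamini-Hochberg adjustment over the pairs. In 7 pairs 1 member passed the edgeR test, in 1 both passed the same way (Rab3a and Rab3c), in 1 the opposite way (Rab6a and Rab6b) and in 10 neither did; a call in 1 member alone is no test of a difference between the members. Rab1b made up 50.9% ± 4.77 of Rab1a and Rab1b in sgNeo and 33.3% ± 8.21 in sgLkb1, and Rab3c made up 5.92% ± 1.69 and 1.87% ± 0.40 of Rab3a and Rab3c. The pairs overlap in members, and the pair of Snap23 and Snap25 was added because of its values. The count of 12 has no background beside it, since pairs of other genes were not compared. Among all single genes tested, 36.5% did not overlap between genotypes.

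**Figure D4:**
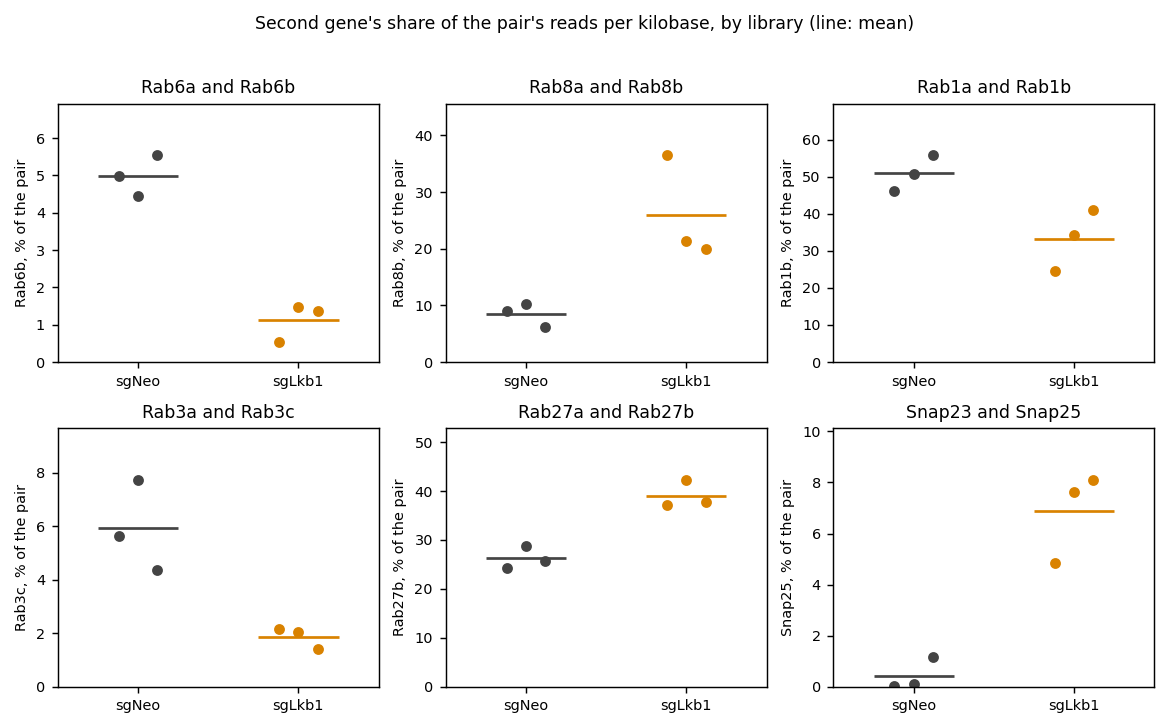
Share of the second gene in the reads per kilobase of a pair (y axis, percent) in each library, with sgNeo in grey, sgLkb1 in orange and lines at the means. The 6 pairs shown are from the 12 whose shares did not overlap. The second gene's share is lower in sgLkb1 for Rab6b, Rab1b and Rab3c and higher for Rab8b, Rab27b and Snap25, with no overlap in any of the 6.

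Identity of coding sequences bears on how reads are divided between relatives. The nearest member by coding nucleotide identity was 78.4% identical for Rab6a and Rab6b, the highest of any, 77.6% for Rab8a and Rab8b, 76.1% for Rab1a and Rab1b, 73.6% for Rab3c with Rab3a, 63.3% for Snap25 with Snap23 and 54.7% for Syt13 with Syt15. Of the 20 genes that passed, the nearest relative passed the same way for 1, the opposite way for 2, did not pass for 12 and was not tested for 5.

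Promoters were searched for the letters that CREB proteins bind, since Lkb1 acts on the SIK kinases, which hold back CREB coactivators. The core site is TGACG and the full palindromic cyclic AMP response element is that site followed by TCA; both strands of the 300 bases from 250 before to 50 after each RefSeq start site were read. In RefSeq (GRCm38.p6), 100 of the 126 genes matched, with 129 promoters. The core site was in 44 of these (34.1%), beside 6837 of all 32851 promoters (20.8%), and the full element in 4 (3.1%), beside 588 (1.79%). The promoters of the members had a median of 61.3% G or C, beside 52.7% for all promoters and 58.3% for all that hold a core site. Among genes that passed, the core site was in 2 of 5 promoters of those that rose and in 2 of 16 of those that fell, beside 37 of 93 (39.8%) of those that did not pass.

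The sites are printed for the 4 genes with the full element, and then for the called genes with a core site only, each with 12 bases on both sides, 5′ to 3′ along the gene, the motif in capitals. Rab11fip3 (chr17:26069549-26069580, minus strand), Rab25 (chr3:88548345-88548376, minus), Rab5a (chr17:53479194-53479225, plus) and Stxbp3 (chr3:108840591-108840622, minus) hold the full element; Rab11fip5 (chr6:85374687-85374715, minus), Rab6a (chr7:100607505-100607533, plus) and Rab3a (chr8:70754655-70754683 and chr8:70754703-70754731, plus) hold core sites, of which Rab3a has 2.
Rab11fip3: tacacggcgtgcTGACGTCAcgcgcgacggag
Rab25: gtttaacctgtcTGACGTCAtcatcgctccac
Rab5a: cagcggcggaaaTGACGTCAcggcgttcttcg
Stxbp3: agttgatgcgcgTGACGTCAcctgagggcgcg
Rab11fip5: ctaggcggggcgTGACGtcgcggggcggc
Rab6a: tcgatttgtcacTGACGtaagcgccccct
Rab3a, upstream: tccctcccctaaCGTCAcagcttcgtttg
Rab3a, downstream: ggctttgcaggaCGTCAgctaggactgca
Of the 4 genes with the full element, Rab11fip3 fell, and Rab25, Rab5a and Stxbp3 did not pass. Of the 3 with a core site, Rab11fip5 and Rab6a rose and Rab3a fell.

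Other genes of vesicle traffic, taken from lists and not by the name rule, place these changes beside their regulators. Of 68 RAB activators (GEFs), inactivators (GAPs) and escort proteins tested, 1 rose and 7 fell (11.8% called, beside 15.7% of all genes). Tbc1d1 and Tbc1d4 are related GAPs that act on Rab8a, Rab10 and Rab14 and are known substrates of AKT and AMPK. Tbc1d1 was at 7.02, 11.2 and 14.3 CPM in sgNeo and at 26.0, 32.6 and 26.4 CPM in sgLkb1 (1.38, SE 0.27, edgeR adjusted p = 0.012). Tbc1d4 was at 19.1, 19.6 and 15.9 CPM in sgNeo and at 7.05, 5.85 and 4.07 CPM in sgLkb1 (-1.68, SE 0.26, edgeR adjusted p = 0.0048). The 2 paralogues thus changed in opposite directions, and neither one's groups overlapped; the Tbc1d1 call was lost without sgNeo replicate 2 (adjusted p = 0.057). Dennd5a, which binds Rab6, was at 37.5 ± 5.72 and 13.5 ± 3.34 CPM and Tbc1d2b at 46.4 ± 1.89 and 21.0 ± 4.32 CPM, both lower; Dennd3, Dennd6b, Rabgap1l and Tbc1d17 were the others that fell, by 0.54 to 0.82 on the log2 scale, and each of these 4 lost its call in 4 or more leave-one-out fits.

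Among 21 tested SNAREs and fusion factors outside the name rule, 1 fell (4.76% called, beside 15.7% of all genes) and 0 rose by edgeR (1 at an unadjusted p under 0.05 and 0 by DESeq2 in that direction). Vps33b, the Sec1/Munc18 protein that acts in the making of lysosome-related organelles, was at 84.8, 72.8 and 64.3 CPM in sgNeo and at 42.1, 28.6 and 33.1 CPM in sgLkb1 (-1.10, SE 0.19, edgeR adjusted p = 0.0080), with no overlap and no call lost in any leave-one-out fit. The SNAREs Use1, Bet1l and Ykt6 had the next lowest p and did not pass (0.069, 0.11 and 0.14).

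Exocytosis cofactors and RAB effectors had 2 rises and 9 falls among 40 tested (27.5%, beside 15.7% of all genes). Baiap3, a Munc13-like protein of dense-core vesicle traffic, was at 16.8, 17.9 and 17.6 CPM in sgNeo and at 2.74, 2.55 and 3.39 CPM in sgLkb1 (-2.59, SE 0.23, edgeR adjusted p = 0.00068). Exoc3l, related to an exocyst subunit, was at 22.3, 16.1 and 14.9 CPM and at 1.47, 2.68 and 4.68 CPM (-2.59, SE 0.42, edgeR adjusted p = 0.0061). The sgLkb1 libraries of both lay far below the controls. Rilp, the Rab7 effector that binds dynein, was at 18.3 ± 1.68 and 5.36 ± 1.24 CPM, and Rph3al (Noc2), an effector of Rab3 and Rab27 in endocrine granules, at 14.2 ± 2.12 and 4.51 ± 1.06 CPM. Cadps2, Mlph, Exoc8, Myo5c and Rilpl1 also fell, by 0.53 to 1.34 on the log2 scale, and each lost its call in 2 or more leave-one-out fits.

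Motors and scaffolds went in both directions: Myo5a, the myosin that carries granules along actin, was at 2.15 ± 1.02 and 12.3 ± 3.41 CPM (2.52, SE 0.41, edgeR adjusted p = 0.0062), whereas its relative Myo5c of glandular cells fell from 81.8 ± 1.71 to 49.1 ± 12.1 CPM. Rims2, an active-zone scaffold that binds Rab3, was at 1.27 ± 0.192 and 4.83 ± 0.501 CPM (1.92, SE 0.35, edgeR adjusted p = 0.0090).

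Synaptic vesicle and neuroendocrine granule genes had 4 rises among 16 tested of 32 listed (25% called, beside 15.7% of all genes), and 16 were too low to test. The 4 include Syn1, which was near 0 in sgNeo and passed the filter only through its sgLkb1 level. It could therefore be called only as a rise, and the 25% is to be read with that limit. Ptprn, a receptor-like protein of dense-core granule membranes, was at 24.7, 11.7 and 43.2 CPM in sgNeo and at 190.2, 192 and 213 CPM in sgLkb1 (2.90, SE 0.42, edgeR adjusted p = 0.0036). Cpe, the carboxypeptidase that trims prohormones in such granules, was at 7.22, 3.52 and 48.8 CPM in sgNeo and at 171, 346 and 186 CPM in sgLkb1 (3.56, SE 0.90, edgeR adjusted p = 0.032). Both were higher in every sgLkb1 library, but the Cpe call was lost in 4 leave-one-out fits (up to 0.095) and without sgNeo replicate 3, the high control, its log2 fold change was 5.44. Synpr was at 2.37 ± 0.968 and 6.22 ± 0.434 CPM and Syn1 at 0, 0.121 and 0 CPM in sgNeo and 1.64, 0.918 and 1.23 CPM in sgLkb1; both calls were lost in some leave-one-out fits, 5 for Synpr and 2 for Syn1. The granule proteins Chga and Chgb, which mark neuroendocrine cells, were below 0.2 CPM on average in both genotypes, and Syp was at 0.669 ± 0.115 and 0.197 ± 0.087 CPM (adjusted p = 0.11). Among the neuroendocrine and neuronal markers, Ncam1 and Calca rose (2 of 5 tested), as given above, and the part of such cells in these values was not tested.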

How the data were processed

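The deposited values are expected counts, 1 per gene and library. FastQC, STAR, RSEM, DESeq2 and build GRCm38 are listed in the submitters' processing notes, without versions; how strand was set, and which annotation was used, is not given in the sources used here. Collagenase and DNase freed the cells and Nextera XT made the libraries, per the labels' protocols. RSEM can split a read among similar genes; exons of 38 of the 126 genes overlap another gene's, 31 on the other strand.

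Expected counts were rounded and filtered with filterByExpr, which left 15978 genes. Libraries were scaled with TMM and compared with the quasi-likelihood test of edgeR 4.0.16 (R 4.3.3; two-sided, genotype only, Benjamini-Hochberg adjustment over all genes tested, threshold 0.05). Every adjusted p comes from this test unless DESeq2 1.42.0 is named. SE is the absolute log2 fold change over the square root of F. CPM are per TMM-scaled library, and levels per kilobase divide by merged exon length in GENCODE M21, which matched 55141 identifiers (99.4%) and 125 of the 126 genes (not Vamp7). A few items are not reported here. Coding identity used the same annotation; it replaced the planned protein identity.

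Data were simulated for 15978 genes, with 50 changed at each fold, all drawn from genes with a mean of at least 2 CPM. The test recovered 2%, 16%, 78% and 92% of those changed 1.5-, 2-, 4- and 8-fold, and called 7 of 15778 unchanged genes. Far fewer genes were changed here than the 2501 called in the data (15.7%). This makes the Benjamini-Hochberg adjustment stricter in the simulation, so the shares recovered may be lower than in the data. Replicates were checked, and each pair differed by far more than sampling noise. Intervals and floors cover counting error only, since no molecular identifiers were used here.

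The members and lists were chosen with earlier results of these data known. Named are every member that passed, the leading member of each family per kilobase, a fixed set of well-known members whatever their values, and the 4 genes of lowest p in each of 4 traffic lists; other called list genes and markers were named after their values were seen. Alternatives were RLE scaling, no filter, CPM of at least 1 in 3 libraries, DESeq2, a block for replicate number, and leave-one-out fits.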

Additional observations from a re-analysis of the deposited data

How the results depend on the processing

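With 3 libraries per genotype the test recovered 16% of simulated 2-fold changes. That share may be too low for the data, where far more genes differed and the adjustment was less strict. A gene that did not pass may still differ. Of the 20 calls, 9 stood in all 11 alternatives. Genes called higher numbered 7, and 13 with DESeq2 and with no filter on low counts, and from 2 to 6 with a library left out; those called lower numbered 13, and from 7 to 16 with a library left out. The low values came without sgNeo replicate 1 (3 higher, 7 lower), sgNeo replicate 2 (2 and 7) or sgLkb1 replicate 2 (7 lower). Stk11 had log2 fold changes of -1.61 to -1.04 with a library left out, past the threshold only without sgNeo replicate 2.

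Whether the replicate numbers pair the libraries is not settled by these values. Deviations of same-numbered libraries correlated at 0.135, -0.021 and 0.115, and those of libraries with unlike numbers at -0.174 to 0.089. With the replicate block 25 members were called, 18 of them among the 20, and Syt16 and Vamp2 were lost.

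In the traffic lists, regulators of RABs had 1 rise, 2 with DESeq2, with no filter and with the replicate block, and 0 to 2 with a library left out; their 7 falls became 3 to 8. Other SNAREs had 0 rises, and 0 to 1 with a library left out. The 9 falls among exocytosis cofactors became 4 to 9, and the 4 rises among synaptic vesicle genes 2 to 3. DESeq2 called 1 of these synaptic vesicle genes lower, where edgeR called 0 (2 at an unadjusted p under 0.05).

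Signs changed in 17 gene values, all of genes that did not pass and all with a library left out, where log2 fold changes ranged from -0.067 to 0.92 for Rab17, -0.59 to 0.014 for Rab27b, -0.066 to 0.15 for Rab3d, -0.13 to 0.025 for Rab5b, -0.035 to 0.20 for Rab8a, -0.0086 to 0.68 for Snap23, -0.13 to 0.21 for Snap29, -0.099 to 0.31 for Stx11, -0.35 to 0.038 for Stx3 and -0.12 to 0.073 for Syt11. Over the 85 named genes tested, 835 values kept sign and side of the threshold, 58 fell short of it and 22 passed it anew.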
